A study of Mus musculus with 12 samples.

Results

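Abdominal fat of db/db mice given a virus carrying a short hairpin RNA (shRNA) against TSC22D4 was compared with fat of mice given control virus. The comparison took the 3 arrays labelled TSC22D4 shRNA (replicates 10, 11 and 12) and the 3 labelled NC shRNA (replicates 1, 2 and 3), 6 of the 12 arrays in the series. It covers 23185 named probe sets, 1 per gene, of the 25206 in the table. All mice were BKS.Cg-Dock7m +/+ Leprdb/J, aged 12 weeks, a strain without a working leptin receptor that becomes obese and diabetic, on regular feed. The TSC22D4 group received 2e9 plaque-forming units (pfu) of TSC22D4 shRNA adenovirus with 2e9 pfu of control shRNA adenovirus. The LCN13 group received 2e9 pfu of LCN13 virus with 2e9 pfu of control virus, and the combined group 2e9 pfu of TSC22D4 virus with 2e9 pfu of LCN13 virus, without control virus. The control group received 4e9 pfu of control virus and no other. Each group held 7 mice, and 3 from each, described in the labels as representative, were measured 1 week after injection, so the animals on arrays were not a random draw. The labels list the genotype as TSC22D4 knockdown and, for controls, as WT, although every animal carries the Lepr mutation. The series title places the work in hyperglycemia and insulin resistance, and the comparison asks how fat RNA differed with the TSC22D4 virus. Addition of TSC22D4 virus and loss of control virus came together and cannot be told apart.

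TSC22D4 belongs to the TSC22 family of leucine zipper proteins, which act in transcriptional control. Type I interferons are the secreted signal of an antiviral alarm that viral nucleic acid can set off. They bind a receptor on the cell surface, and a complex that includes STAT2 and IRF9 then enters the nucleus and binds the interferon-stimulated response element in promoters. The genes switched on code for sensors of viral RNA and DNA, for proteins that block viral RNA or its translation, and for the machinery that attaches the ubiquitin-like protein ISG15. Fat cells and the macrophages between them can both run this programme.

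Values below are RMA values on a log2 scale, on which a difference of 1 is 2-fold, and each difference is TSC22D4 shRNA minus control. "Passed" means an adjusted p under 0.05 in limma's two-sided test, adjusted over all 23185 genes. All adjusted p-values are limma's. In all, 272 genes passed (1.17% of those tested), 68 higher (0.293%) and 204 lower (0.88%). In all 204 lower genes every TSC22D4 shRNA array was below every control array, which held for 8.38% of all genes. They had a median of -0.76 and included 70 that differed at least 2-fold, 19 at least 4-fold and 5 at least 8-fold. The 68 higher genes had a median of 0.35 and included 6 at least 2-fold. The median over all genes was -0.0022, with a 5th to 95th percentile range of -0.18 to 0.19. At an unadjusted p under 0.05 there were 2739 genes. None of the 272 genes that passed overlapped between the groups, so a lack of overlap adds nothing to a single call below.

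**Figure D1:**
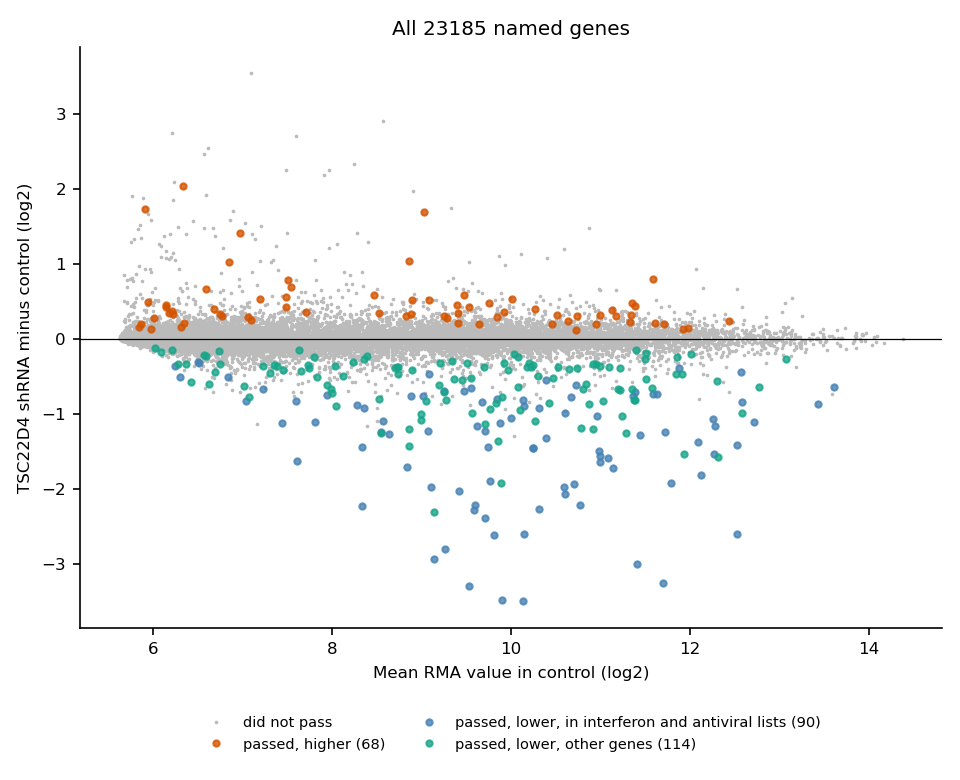
Mean RMA value in control (log2, horizontal) against the log2 difference TSC22D4 shRNA minus control (vertical), 1 point for each of 23185 genes, with the genes that passed coloured by direction. The lower genes extend to -3.50, while only 1 of the higher genes that passed exceeds 2.

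The shRNA target itself was examined first. Tsc22d4 read 7.74, 7.72 and 7.56 in TSC22D4 shRNA arrays, against 7.59, 7.57 and 7.88 in control arrays. The groups overlapped. The difference was -0.0074 (SE 0.08, adjusted p = 0.989), with a 95% interval of -0.19 to 0.17, which allows a reduction of up to 12.3%. No lower level was therefore detectable in fat, and the knockdown named in the labels was not borne out by this probe set in this tissue. The groups are named here by the virus the mice received. Obp2a, the gene of LCN13, read 5.76, 5.79 and 5.73 against 5.72, 5.74 and 5.73, near the floor of the arrays. The 4 measured genes of the TSC22 family ranged from -0.10 to 0.14 (Tsc22d1), and 0 passed.

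Fat was recognisable by its markers. The 8 measured adipocyte markers had a median difference of 0.041 with 0 passed, and Adipoq, the adipokine adiponectin, differed by -0.08. Summed linear levels of these markers ran from 74432 to 78314 in TSC22D4 shRNA arrays and from 73233 to 76294 in control arrays. The first principal component of the 6 arrays held 44.6% of the variance and separated the groups. TSC22D4 replicate 11 stood apart in 12 genes that read at least 2 log2 units above all 5 other arrays. Among them Gpx5 read 5.79, 11.41 and 5.81 in TSC22D4 shRNA arrays 10, 11 and 12, against 5.71, 5.81 and 5.78 in control arrays. Lcn8 read 5.96, 10.87 and 5.97 against 5.97, 5.94 and 5.92, and Defb20 read 5.88, 10.37 and 5.88 against 5.86, 5.84 and 5.87. Outside this comparison, replicate 13 of the combined group read highest in these genes (Gpx5 9.125, Lcn8 6.725 and Defb20 7.809). Gpx5, Lcn8 and Defb20, chosen after their values were seen, are known for expression in the epididymis, which lies against the abdominal fat pad of male mice. The labels do not give the sex of the mice, and carry-over of neighbouring tissue at dissection was not tested on any array.

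TSC22D4 replicate 10 stood apart in 8 genes. One, also chosen after its value was seen, was Svs5, a secretory gene of the seminal vesicle, which read 10.24 there and 5.82 and 5.84 in TSC22D4 replicates 11 and 12, against 5.87, 5.81 and 5.82 in control arrays. The other 7 of replicate 10, and all 5 genes in which replicate 12 stood apart, were immunoglobulin variable genes. Control replicate 1 stood apart in 1 gene and control replicates 2 and 3 in 0. None of the genes in which an array stood apart passed. Summed levels of 10 kidney, adrenal and gonad markers were 610 to 2169 in TSC22D4 shRNA arrays and 618 to 698 in control arrays. Without replicate 11, 153 genes passed (32 higher and 121 lower). Without replicate 10, 156 did (29 higher and 127 lower).

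Interferon-induced genes made up the larger part of the strong decreases. The 15 interferon and antiviral gene lists hold 247 measured genes, of which 90 passed lower and 0 higher. At least 2-fold lower were 55 of these 90. Another 114 genes passed lower outside the lists, 15 of them at least 2-fold. In bulk tissue fewer cells of a type and less RNA per cell cannot be told apart. Summed levels of 17 macrophage markers were 45840 to 50275 in TSC22D4 shRNA arrays, against 48408 to 57011 in control arrays. Of these 17 markers 1 passed, the interferon-induced lectin Siglec1, which is described below. The part of cell numbers in these decreases was not tested.

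Promoters of strongly lowered genes that hold the motif known from interferon signalling are shown first. Promoter windows of 300 bases (250 before the RefSeq start and 50 after it, mouse assembly GRCm38.p6) were matched by Entrez gene identifier for 17452 of the genes tested. The core of the interferon-stimulated response element, GAAA followed after any 2 bases by GAAA, on either strand, was present in 678 of them (3.88%). It was present in 24 of 54 genes that passed at least 2-fold lower and had a window (44.4%). Of those at least 4-fold lower, 5 of 13 held it (38.5%). It was present in 45 of all 162 lower genes with a window (27.8%) and in 1 of 51 higher ones (1.96%). Stretches of 50 bases around the match, with both the core and its reverse complement in capitals, are given 5′ to 3′ on the gene's strand for the 6 genes with the largest decreases among those with a match:
Oas1g: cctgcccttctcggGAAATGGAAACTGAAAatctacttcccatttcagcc
Oas3: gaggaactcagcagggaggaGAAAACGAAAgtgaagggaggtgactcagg
Ifi213: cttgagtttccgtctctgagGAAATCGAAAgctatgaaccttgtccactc
Ifit1: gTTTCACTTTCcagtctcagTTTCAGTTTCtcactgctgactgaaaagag
Trim30d: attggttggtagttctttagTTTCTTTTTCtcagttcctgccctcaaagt
Trim30a: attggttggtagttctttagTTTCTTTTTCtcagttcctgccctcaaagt

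These stretches lie at chr5:120887596-120887645 (Oas1g, minus strand), chr5:120777705-120777754 (Oas3, minus), chr1:173599316-173599365 (Ifi213, minus), chr19:34640784-34640833 (Ifit1, plus), chr7:104507861-104507910 (Trim30d, minus) and chr7:104465200-104465249 (Trim30a, minus). Oas1g holds 2 overlapping matches and Ifit1 holds 2 separate ones on the opposite strand. The match nearest the start began 12 bases upstream of it in Oas1g and 85 bases upstream in Ifit1. Trim30d and Trim30a share all 50 bases shown. Within the interferon lists, the core was present in 36 of 73 lower genes with a window (49.3%) and in 35 of 121 members that did not pass (28.9%). Outside the lists it was present in 9 of 89 lower genes (10.1%). A match is a description of these letters in these windows, not a binding site.

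Oligoadenylate synthetases, which make a messenger in response to double-stranded RNA, were the most strongly lowered family. Of 12 measured Oas genes, 7 passed lower and 0 higher, with a median of -1.47. Oas1g, whose promoter is printed above, read 6.69, 6.38 and 6.86 in TSC22D4 shRNA arrays, against 9.90, 10.53 and 9.98 in control arrays (-3.50, SE 0.17, adjusted p = 7.4e-06). Oas3 read 6.39, 6.33 and 6.52 against 9.40, 10.40 and 9.90 (-3.48, SE 0.20, adjusted p = 2.07e-05). In both genes every TSC22D4 shRNA array lay near the array median of 6.31, and every control array was some 3 log2 units higher. Oas2 (-1.92), Oas1b (-1.97) and Oasl2 (-1.81) also fell. Oas genes are similar in sequence and may share probe signal, so single members are uncertain.

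IFIT proteins bind foreign RNA ends and IFITM proteins block entry of viruses at membranes. Of the 12 measured, 4 passed lower, with a median of -0.33. Ifit1 read 8.44, 8.41 and 8.50 in TSC22D4 shRNA arrays, against 11.87, 11.80 and 11.43 in control arrays (-3.25, SE 0.13, adjusted p = 4.71e-06). Ifit2 read 7.33, 7.28 and 7.33 against 9.47, 9.75 and 9.56 (-2.28, SE 0.09, adjusted p = 4.71e-06). The groups lay far apart in both genes, and the TSC22D4 shRNA arrays differed among themselves by under 0.1. Ifitm3, bright in all arrays, read 12.95, 12.93 and 13.05 against 13.56, 13.66 and 13.62 (-0.64, adjusted p = 0.000248).

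**Figure D2:**
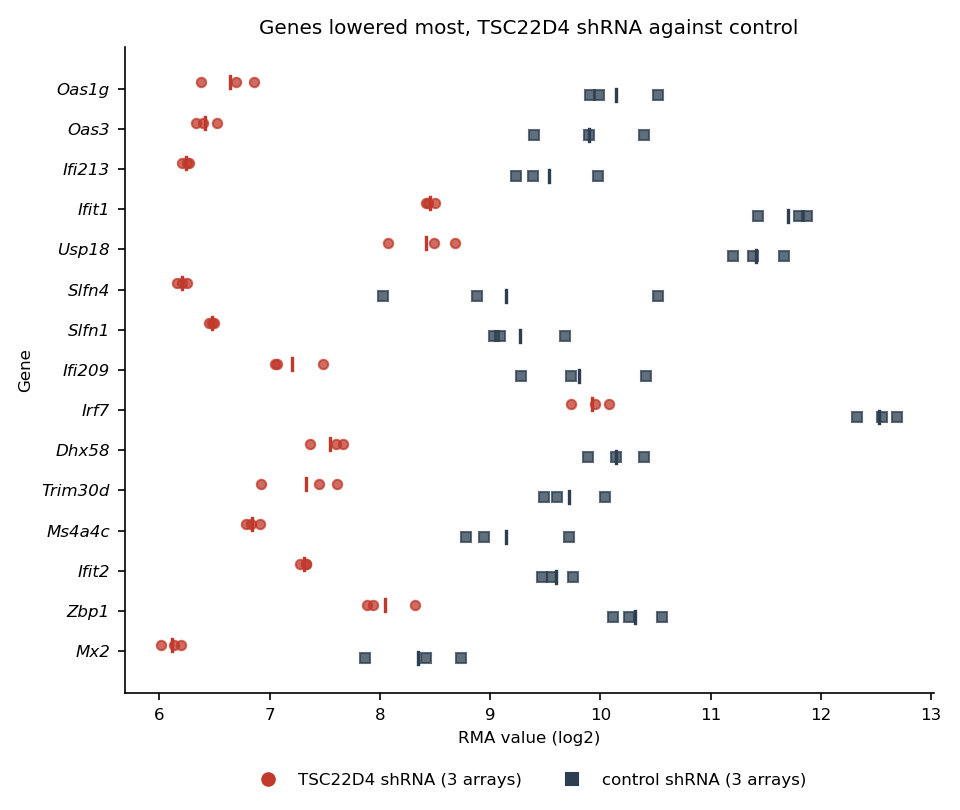
RMA values (log2) of the named genes with the largest decreases on each of the 3 TSC22D4 shRNA arrays and the 3 control arrays, 1 point per array with the group mean as a line. Genes were plotted only if their groups did not overlap, and the control arrays spread most in Slfn4, from 8.03 to 10.52.

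The Ifi200 family, which includes sensors of DNA, and the Schlafen family, which includes genes that limit growth of immune cells and translation of viral RNA, were also lower. Of 12 measured Ifi200 genes 7 passed lower (median -0.66), and of 10 Schlafen genes 6 did (median -0.84). Ifi213 read 6.25, 6.21 and 6.27 in TSC22D4 shRNA arrays, against 9.39, 9.97 and 9.24 in control arrays (-3.29, SE 0.15, adjusted p = 7.4e-06). Slfn1 read 6.47, 6.45 and 6.50 against 9.09, 9.68 and 9.04 (-2.79, SE 0.15, adjusted p = 1.25e-05). Both genes sat at the dim end with TSC22D4 shRNA, where array values are compressed, while Ifi211 and Slfn5 were bright and fell by 0.84 and 0.73. Slfn4 read 6.25, 6.16 and 6.21 against 8.03, 10.52 and 8.88 (-2.94, SE 0.48, adjusted p = 0.0201). Its groups did not overlap, but its call was lost without TSC22D4 replicate 10, 11 or 12 or control replicate 3, with an adjusted p of up to 0.0818. Ifi209 (-2.61), Ifi204 (-1.49), Ifi203 (-1.16), Slfn8 (-1.44) and Slfn9 (-1.27) fell as well.

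Sensors that recognise viral nucleic acid inside the cell were lower, with 7 of 16 passed and a median of -0.63. Dhx58, a regulator of RNA sensing also known as LGP2, read 7.67, 7.37 and 7.61 in TSC22D4 shRNA arrays, against 9.89, 10.40 and 10.14 in control arrays (-2.60, adjusted p = 8.75e-06). Ddx58, the RNA sensor RIG-I, read 10.72, 10.72 and 10.73 against 12.00, 12.24 and 12.04 (-1.37, SE 0.06, adjusted p = 6.14e-06). Zbp1, which senses left-handed nucleic acid, read 7.94, 7.89 and 8.32 against 10.12, 10.56 and 10.26 (-2.26, adjusted p = 5.89e-05). In each of these 3 genes the lowest control array lay above the highest TSC22D4 shRNA array by more than 1 log2 unit. The RNA sensor Ifih1 (-1.59), the RNA helicase-like Ddx60 (-1.70) and the RNA-activated kinase Eif2ak2 (-1.46), which halts translation, also fell.

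Interferon-induced GTPases had 6 of 18 passed lower, with a median of -0.41. Mx2, of the dynamin-like Mx proteins that block incoming viruses, read 6.19, 6.02 and 6.13 in TSC22D4 shRNA arrays, against 8.42, 8.74 and 7.87 in control arrays (-2.23, adjusted p = 0.000146). Mx1 fell by 1.63 log2 (adjusted p = 0.00352). The list of antiviral PARP enzymes, most of which attach ADP-ribose, had 7 of 8 passed lower, with a median of -0.85 and Parp14 at -1.28. Parp9 and its partner Dtx3l, a ubiquitin ligase counted in that list, fell by 0.82 and 0.74. Among 17 Trim proteins, which are mostly ubiquitin ligases, 6 passed lower. Trim30d read 7.45, 6.92 and 7.61 against 9.49, 10.04 and 9.60 (-2.38, SE 0.22, adjusted p = 0.0005), and Trim30a fell by 1.97. Their promoters share the stretch printed above, and their probe signal may be shared too.

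ISG15 conjugation runs through an activating enzyme, a conjugating enzyme, ligases and a protease that takes ISG15 off again. Of 6 measured genes 5 passed lower. Usp18, the protease, which also restrains the interferon receptor, read 8.49, 8.07 and 8.68 in TSC22D4 shRNA arrays, against 11.38, 11.66 and 11.20 in control arrays (-3.001, SE 0.15, adjusted p = 1.05e-05). Herc6, the mouse ligase, fell by 1.72, Uba7, the activating enzyme, by 0.92 and Ube2l6, the conjugating enzyme, by 0.76. The call of Ube2l6 was lost without any 1 of the TSC22D4 replicates or without control replicate 1 or 2 (adjusted p up to 0.0967). Isg15 itself read 5.93, 5.90 and 5.96 against 6.06, 6.29 and 6.08 (-0.22, adjusted p = 0.154). It did not pass, and all 6 arrays were under the array median, so this probe set can say little about it.

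The signal transducers were split. Irf7, the transcription factor that amplifies interferon production, read 10.08, 9.73 and 9.95 in TSC22D4 shRNA arrays, against 12.33, 12.69 and 12.55 in control arrays (-2.60, SE 0.13, adjusted p = 8.75e-06). Stat2 read 9.32, 9.28 and 9.49 against 10.98, 11.21 and 10.80 (-1.63, adjusted p = 4.77e-05), and Irf9 read 8.85, 8.84 and 8.83 against 9.76, 9.71 and 9.58 (-0.84, adjusted p = 6.52e-05). The groups were separate in all 3, which are themselves known targets of interferon. The other 15 of 18 measured transducers did not pass. Of 23 measured interferons and interferon receptors 0 passed, with a median of -0.002 and a range from -0.07 (Ifngr1) to 0.27 (Ifnl3). Their median level was 6.09, under the array median of 6.31, and 4 further members of the list were not matched. Dim values are compressed, so the dim members can say little about a fall. The receptor chain Ifnar1 read 10.65, 10.54 and 10.63 against 10.41, 10.61 and 10.49, and these groups overlapped.

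**Figure D3:**
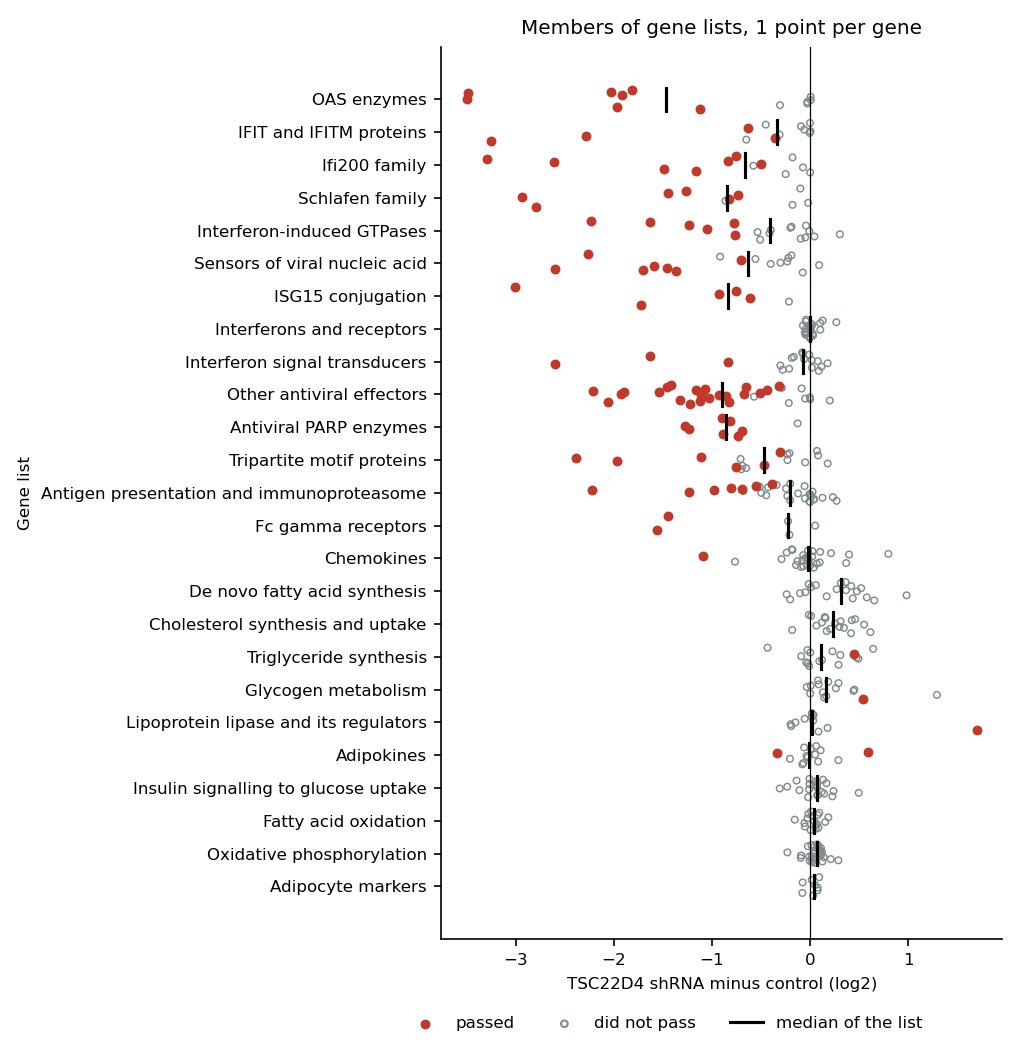
Log2 difference TSC22D4 shRNA minus control (horizontal) of each measured member of 25 gene lists (rows), filled where it passed, with a line at the median of the list. Members of the antiviral families reach -3.50, and the lipid and glycogen lists have medians above 0. The interferons and receptors, with a median level under the array median, stay between -0.07 and 0.27.

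A further list of 30 antiviral effectors had 22 passed lower, with a median of -0.89. Phf11d, of a family next to Setdb2 on chromosome 14, read 7.92, 7.82 and 7.87 in TSC22D4 shRNA arrays, against 9.71, 9.88 and 9.70 in control arrays (-1.90, SE 0.06, adjusted p = 1.37e-06). Rtp4, which has known antiviral and receptor-trafficking roles, read 8.61, 8.37 and 8.69 against 10.78, 10.82 and 10.71 (-2.21, adjusted p = 7.22e-06). The spread within each group was small beside the difference between the groups. Rsad2, which codes for viperin and makes a chain terminator of viral RNA, read 10.84, 10.54 and 10.83 against 12.26, 12.65 and 11.91 (-1.54, SE 0.22, adjusted p = 0.011). Its groups did not overlap either, and its call was lost without TSC22D4 replicate 11 (adjusted p = 0.0555). Its neighbour Cmpk2, a mitochondrial nucleotide kinase, fell by 2.06. Rnf213 (-1.53), a large ubiquitin ligase, and Helz2 (-1.43), a helicase that coactivates nuclear receptors, are interferon-induced genes outside the naming rule, chosen after their values were seen, and both passed.

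Of 31 measured genes of antigen presentation and the immunoproteasome, 7 passed lower, with a median of -0.20. H2-T24, a non-classical class I gene, read 7.52, 7.21 and 7.44 in TSC22D4 shRNA arrays, against 9.48, 9.98 and 9.36 in control arrays (-2.22, adjusted p = 5.83e-05). Nlrc5, the class I transactivator, fell by 0.70 (adjusted p = 0.00197), and the peptide transporter Tap1 fell by 0.55. The immunoproteasome subunit Psmb8 (-0.80, adjusted p = 0.0421) lost its call whichever of the 6 arrays was left out, and Tap1 lost it without TSC22D4 replicate 10 or 11 or control replicate 2. Of 6 MHC class II pathway genes, which serve antigen presentation by macrophages, dendritic cells and B cells, 0 passed, with a range from -0.0060 to 0.23. Ciita, their transactivator, differed by 0.27 (adjusted p = 0.546).

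Some leukocyte membrane proteins also fell. Siglec1, a sialic acid-binding lectin of macrophages, read 10.71, 10.46 and 11.03 in TSC22D4 shRNA arrays, against 11.99, 12.51 and 12.44 in control arrays (-1.58, SE 0.22, adjusted p = 0.00834). Ms4a4c, a membrane protein of leukocytes, read 6.91, 6.78 and 6.83 against 8.78, 9.71 and 8.95 (-2.30, adjusted p = 0.00058). The groups were separate in both. Of 5 Fc gamma receptors, which bind antibody, Fcgr1 (-1.56, adjusted p = 0.0108) and Fcgr4 (-1.44, adjusted p = 0.0141) fell, and 3 did not pass, the highest being Fcgr2b at 0.052. The call of Fcgr4 was lost without TSC22D4 replicate 10 or 11 or control replicate 2 or 3. Of 29 chemokines 1 passed, the interferon-induced T-cell attractant Cxcl10 (-1.09, adjusted p = 0.0409), and its call was lost whichever of the 6 arrays was left out. Among 17 inflammatory cytokines 0 passed, with a median of -0.021.

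In the gene order of GRCm38.p6, 67 of the 204 lower genes stood next to another lower gene (32.8%), in 28 runs. Of all genes tested, 1.69% stood next to a lower gene. Of the 68 higher genes 0 stood next to another higher one. The longest runs were Phf11, Phf11a, Phf11b, Phf11d, Phf11c and Setdb2 on chromosome 14 and Ifi204, Ifi203-ps, Mndal, Ifi211 and Ifi203 on chromosome 1. Slfn5, Slfn9 and Slfn8, and Slfn1, Slfn4 and Slfn3, formed runs of 3 on chromosome 11, and Parp14, Dtx3l and Parp9 formed another on chromosome 16. The Phf11, Ifi200 and Slfn runs are of gene families with similar sequence, whose probes may share signal, while pairs such as Rsad2 and Cmpk2 or Tap1 and Psmb8 are not of one family.

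Outside the antiviral programme the decreases were smaller. Slc27a1, a fatty acid transporter that insulin moves to the cell surface, read 10.86, 10.76 and 10.90 in TSC22D4 shRNA arrays, against 11.19, 11.25 and 11.24 in control arrays (-0.39, adjusted p = 0.00151). The groups were separate, and the call held whichever of the 6 arrays was left out. C4b, a complement component chosen after its values were seen, read 11.36, 11.30 and 11.45 against 11.85, 11.85 and 11.84 (-0.47, adjusted p = 0.00502), and it held likewise. Dck, a nucleoside kinase also chosen afterwards, fell by 1.20 (adjusted p = 0.00295). Pdk4, which restrains entry of pyruvate into oxidation, read 10.61, 10.52 and 10.54 against 11.57, 11.19 and 11.38 (-0.82, adjusted p = 0.0243). Its call was lost without TSC22D4 replicate 10, 11 or 12 or control replicate 1 or 3 (adjusted p up to 0.0976). The matrix protein Thbs2 (-0.66, adjusted p = 0.0314) lost its call in all 6 such fits.

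The increases were fewer and rested on less. Of the 15 largest, 4 kept their call whichever of the 6 arrays was left out, against 14 of the 15 largest decreases. These 4 were Olr1, Cd209a, Krt222 and Adap1. In a fit on those 6 arrays alone, Krt222 and Adap1 lost their call (adjusted p = 0.121 and 0.0701). Olr1 and Cd209a kept it there. Olr1, a receptor for oxidised lipoproteins, read 9.94, 9.85 and 9.89 in TSC22D4 shRNA arrays, against 8.81, 9.01 and 8.77 in control arrays (1.03, SE 0.13, adjusted p = 0.00517). Cd209a, a lectin of dendritic cells also called DC-SIGN, read 7.89, 8.00 and 7.75 against 6.79, 6.96 and 6.82 (1.02, SE 0.12, adjusted p = 0.00288). Both rose by some 2-fold with no overlap between the groups. Krt222, a keratin-like gene, read 7.29, 7.49 and 7.02 against 6.60, 6.59 and 6.60 (0.67, adjusted p = 0.00868). Adap1, an Arf GTPase-activating protein, read 9.14, 9.04 and 8.96 against 8.54, 8.54 and 8.32 (0.58, adjusted p = 0.00445). Of 10 dendritic cell markers 1 passed higher (Cd209a) and 1 lower (Bst2, an interferon-induced tether of virus particles, -0.82), with a median of 0.061. The call of Bst2 was lost without TSC22D4 replicate 10, 11 or 12 or control replicate 3 (adjusted p up to 0.0788).

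**Figure D4:**
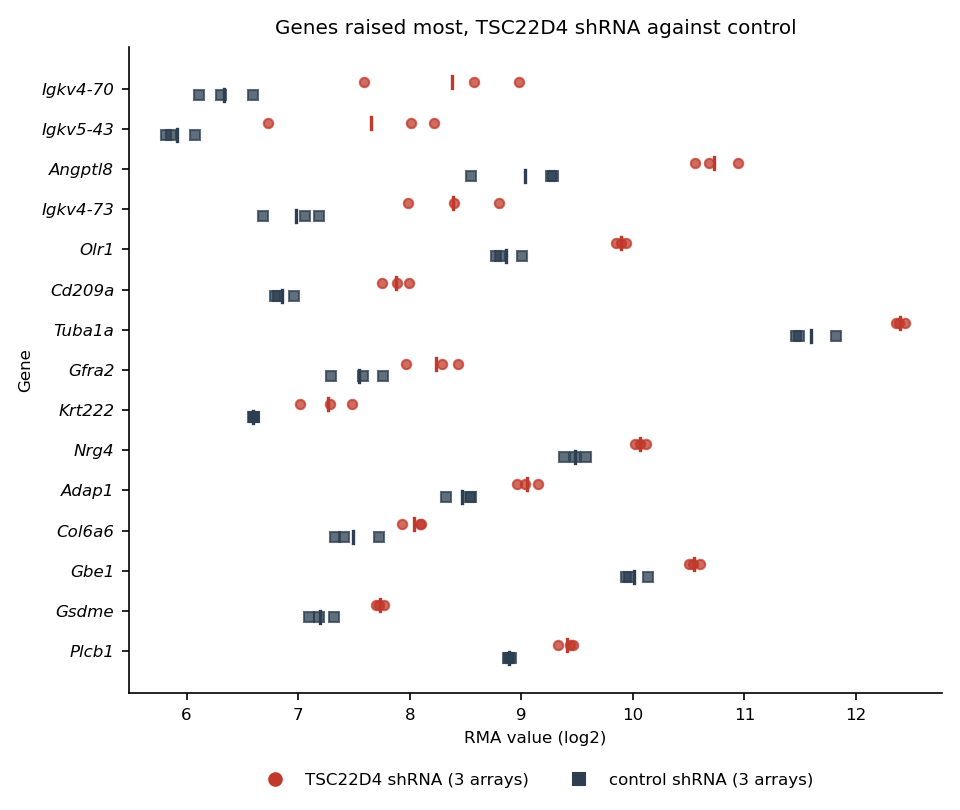
RMA values (log2) of the named genes with the largest increases on each of the 3 TSC22D4 shRNA arrays and the 3 control arrays, 1 point per array with the group mean as a line. TSC22D4 replicate 11 lies below the other TSC22D4 shRNA arrays in the 3 immunoglobulin variable genes plotted.

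Lists of lipid handling held single members that passed higher: 1 of 11 for lipoprotein lipase and its regulators, 1 of 15 for lipogenic transcription factors and 1 of 16 for triglyceride synthesis, against 0 of 16 for lipolysis and lipid droplet proteins. Of all genes 0.293% passed higher. Angptl8, which restrains lipoprotein lipase after feeding, read 10.69, 10.94 and 10.55 in TSC22D4 shRNA arrays, against 9.26, 9.29 and 8.55 in control arrays (1.70, SE 0.26, adjusted p = 0.0155). All TSC22D4 shRNA arrays were above all control arrays, and the call was lost without TSC22D4 replicate 10 or 11 (adjusted p up to 0.0761). Srebf1, the lipogenic transcription factor, read 10.36, 10.16 and 10.18 against 9.78, 9.88 and 9.63 (0.47, adjusted p = 0.022). Lpin1, a phosphatidate phosphatase of triglyceride synthesis, read 11.75, 11.93 and 11.80 against 11.52, 11.37 and 11.27 (0.44, adjusted p = 0.0415). Neither gene overlapped between the groups, and each lost its call in 5 of 6 fits without 1 array, Srebf1 in all but the one without control replicate 2 and Lpin1 in all but the one without control replicate 1. Of 14 adipokines 1 passed higher and 1 lower, with a median of -0.008. Nrg4, made by thermogenic fat, read 10.06, 10.11 and 10.02 against 9.57, 9.48 and 9.38 (0.59, adjusted p = 0.0409) and lost its call in all 6. Nampt, an enzyme of NAD synthesis that is also secreted, fell by 0.33 (adjusted p = 0.0365) and kept its call only without control replicate 3.

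The enzymes of fatty acid synthesis lay higher without passing. Of 19 measured, 0 passed and 14 had a difference above 0, against 47.6% of all genes. In 10 all TSC22D4 shRNA arrays were above all control arrays, as in 8.27% of all genes. Their median was 0.31. Fasn, fatty acid synthase, read 13.53, 13.59 and 13.51 in TSC22D4 shRNA arrays, against 13.34, 13.10 and 12.76 in control arrays (0.48, adjusted p = 0.147). Acaca, acetyl-CoA carboxylase, read 11.66, 11.68 and 11.62 against 11.26, 11.09 and 10.65 (0.65, adjusted p = 0.116). Elovl6, which elongates saturated fatty acids, read 10.95, 11.17 and 10.64 against 10.39, 10.04 and 9.38 (0.98, adjusted p = 0.221). The control arrays spread more than the TSC22D4 shRNA arrays in these 3 genes, with control replicate 3 lowest each time. Of 18 genes of cholesterol synthesis and uptake 0 passed, 16 were above 0 and 10 did not overlap, with a median of 0.23, and Lss, lanosterol synthase, read 9.60, 9.58 and 9.68 against 9.06, 9.16 and 8.99 (0.55, adjusted p = 0.0898).

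Of 15 measured genes of glycogen metabolism 1 passed higher, against 0.293% of all genes, and 0 passed lower. The median was 0.17. A difference above 0 was found in 14 of them, against 47.6% of all genes, and 5 had all TSC22D4 shRNA arrays above all control arrays. Gbe1, the glycogen branching enzyme, read 10.54, 10.60 and 10.50 in TSC22D4 shRNA arrays, against 10.13, 9.94 and 9.96 in control arrays (0.54, SE 0.08, adjusted p = 0.00944). Its groups were separate, and the call was lost without TSC22D4 replicate 11 (adjusted p = 0.0519). Gys2, a glycogen synthase best known from liver, read 9.62, 9.75 and 9.71 against 8.47, 8.61 and 8.12 (1.29, SE 0.28, adjusted p = 0.0731). Its groups lay more than 1 log2 unit apart, but it did not pass. The spread in this test comes from all 4 groups, and the LCN13 arrays read 7.50, 7.71 and 8.66. The part of that spread in the result was not tested. Gys2 had an adjusted p of 0.0184 to 0.0819 in 7 other settings, passing in 3. Without 1 array of the groups compared it was 0.114 to 0.204. The muscle-type synthase Gys1 differed by 0.16. Insulin signalling to glucose uptake had 0 of 22 passed (median 0.071), oxidative phosphorylation 0 of 31 (median 0.072) and fatty acid oxidation 0 of 17 (median 0.041).

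Immunoglobulin genes, which mark plasma cells, gave large but uneven differences. Of 185 immunoglobulin variable genes, identified by symbol, 4 passed higher (2.16%, against 0.293% of all genes) and 0 lower. A difference above 0 was found in 157, against 47.6% of all genes, and the median was 0.38. Igkv4-70, the gene with the largest increase that passed, read 8.57, 7.59 and 8.97 in TSC22D4 shRNA arrays, against 6.59, 6.31 and 6.11 in control arrays (2.04, SE 0.33, adjusted p = 0.0184). Its groups did not overlap, but its call was lost without TSC22D4 replicate 10 or 12 or control replicate 2 or 3 (adjusted p up to 0.0826). The constant gene Ighg1 read 11.42, 8.96 and 11.51 against 6.81, 7.30 and 7.17 (3.54, SE 0.99, adjusted p = 0.169). It had the largest difference of all genes without passing. In it and in Jchain, the joining chain of secreted antibody (8.95, 6.87 and 8.62 against 6.67, 6.87 and 6.47, difference 1.47, adjusted p = 0.226), TSC22D4 replicate 11 lay below the other TSC22D4 shRNA arrays.

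Of the 64 genes that were at least 2-fold higher and did not pass, 48 were immunoglobulin genes. The 10 measured plasma cell markers had 0 passed, and Sdc1 was the lowest at -0.0090. Their summed levels were 30615 to 37916 in TSC22D4 shRNA arrays and 24830 to 27492 in control arrays. Immunoglobulin variable genes are similar in sequence and may share probe signal, and the part of plasma cell numbers in these values was not tested.

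Among genes with a large difference that did not pass were Saa3 and S100a8. Saa3, a serum amyloid made in fat, read 11.23, 10.96 and 11.51 in TSC22D4 shRNA arrays, against 9.91, 10.21 and 10.22 in control arrays (1.13, adjusted p = 0.172). S100a8, a neutrophil calcium-binding protein, read 8.13, 8.28 and 9.42 against 7.51, 7.48 and 7.15 (1.23, adjusted p = 0.264). Both genes separated the groups but spread within them. The 12 measured neutrophil markers, S100a8 among them, had a median of 0.0060, with 7 above 0, 5 below and 0 passed. Of the 44 lists outside the interferon and antiviral ones, 31 had no member that passed.

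The LCN13 group received the same 2e9 pfu of control virus, with LCN13 virus in place of TSC22D4 virus. Both comparisons with control share the control arrays, so the difference between the virus groups was tested directly. TSC22D4 shRNA minus LCN13 shRNA gave 239 genes (1.03%), 106 higher (0.457%) and 133 lower (0.574%), but between 2 and 582 when 1 array of either group was left out. The fewest were found without LCN13 replicate 5 (2 genes), TSC22D4 replicate 10 or LCN13 replicate 6 (4 each), TSC22D4 replicate 11 (6) and TSC22D4 replicate 12 (8), and the most without LCN13 replicate 8. Of the 90 lowered interferon and antiviral genes, 2 passed lower in it and 0 higher, and 84 lay within 0.5 log2 of the LCN13 group. The share within 0.5 log2 over all genes was not counted for this difference. The median of these 90 genes was -1.19 against control and 0.0090 against LCN13 shRNA. Oas1g, for example, read 6.43, 6.48 and 6.32 in LCN13 arrays, and Ifit1 read 8.82, 8.81 and 8.47.

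Both exceptions were lower with TSC22D4 shRNA than with LCN13 shRNA. Samd9l, an antiproliferative antiviral gene chosen after its values were seen, read 8.40, 8.47 and 8.52 in TSC22D4 shRNA arrays, against 8.98, 8.97 and 8.97 in LCN13 arrays, with 9.63, 9.62 and 9.62 in control arrays. It was lower than LCN13 by 0.51 log2 (SE 0.04, adjusted p = 0.00483) and differed from control by -1.16 (adjusted p = 1.37e-06). The 3 groups were separate from each other. Phf11d differed from LCN13 shRNA by -0.31 (adjusted p = 0.0497), and that call was lost in 5 of 6 fits without 1 array.

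**Figure D5:**
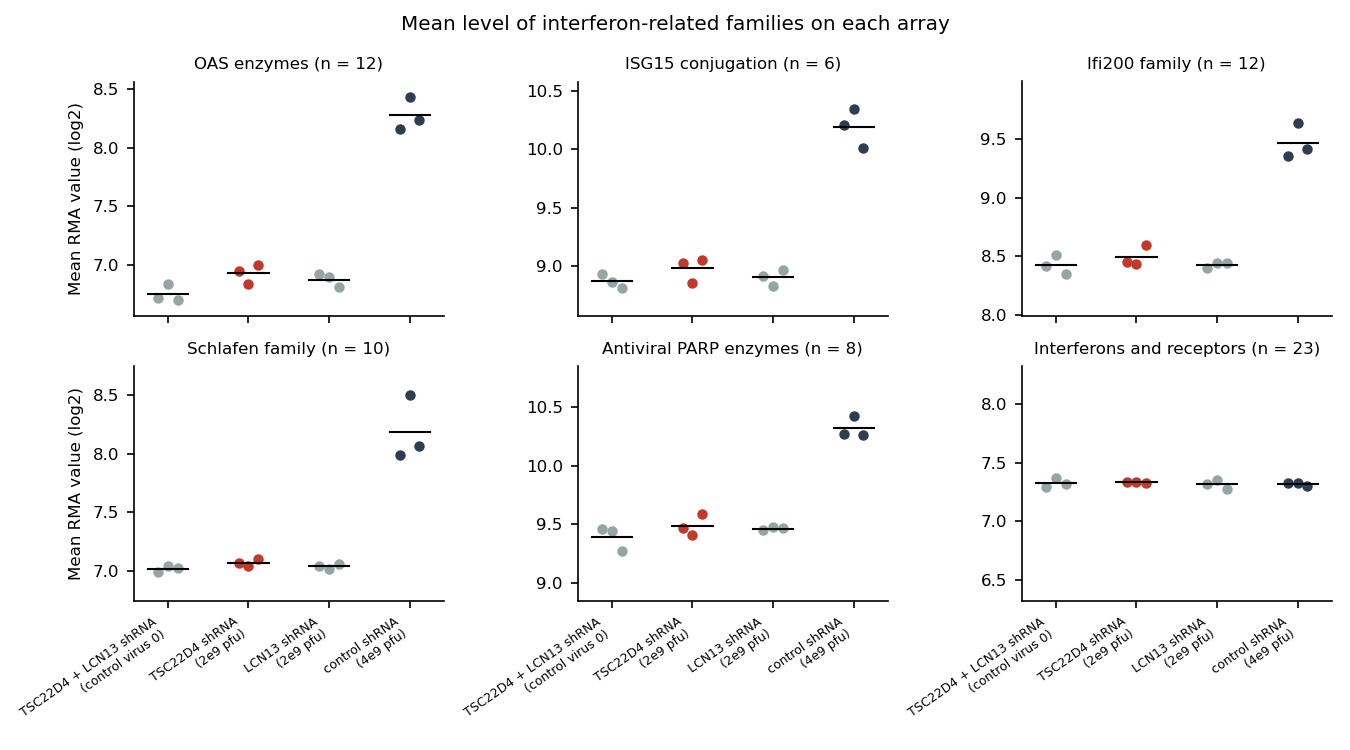
Mean RMA value (log2, vertical) of 6 interferon-related gene families on each of the 12 arrays, 1 point per array with the group mean as a line, in groups ordered by the amount of control virus they received. The 3 control arrays lie above all 9 others in 5 families. The means of the interferons and receptors, many of them dim, lie between 7.28 and 7.36 on all 12 arrays.

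Higher and lower genes of the comparison with control were chosen on the same TSC22D4 shRNA arrays that enter the difference from LCN13 shRNA, so a like direction there is partly fixed by that choice, and the values are given side by side. Olr1 read 8.93, 8.50 and 8.96 in LCN13 arrays and was 1.10 higher with TSC22D4 shRNA (SE 0.13, adjusted p = 0.0188). Gbe1 (0.47), Gys2 (1.74) and Lss (0.77) were higher with an adjusted p of 0.036 each. Calls of these 4 against LCN13 shRNA were lost in 5 of 6 fits without 1 array. Of the genes that passed against both groups in one direction, Samd9l and Kptn kept their call against LCN13 shRNA in all 6 fits. Kptn, of a complex that restrains mTORC1, was chosen after its values were seen and read 7.37, 7.31 and 7.38 in TSC22D4 shRNA arrays, against 7.00, 6.90 and 7.00 in LCN13 arrays (0.38, SE 0.03, adjusted p = 0.00795) and 7.09, 7.07 and 7.14 in control arrays (0.25, adjusted p = 0.00526). The call of Kptn against control was lost in a fit on only the arrays compared and with a variance trend (adjusted p up to 0.129).

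The combined group had LCN13 virus in place of the remaining control virus. By limma, 0 genes passed in TSC22D4 shRNA minus the combined group, and 1602 had an unadjusted p under 0.05. The 90 lowered interferon and antiviral genes had a median difference of 0.13 from the combined group, with 72 of 90 above 0. The share above 0 over all genes was not counted for this difference. Ifit2 differed by -0.00098 and Oas3 by 0.08. Irf7 differed by 0.65, well above that median, and read 10.08, 9.73 and 9.95 in TSC22D4 shRNA arrays, against 9.43, 9.25 and 9.15 in combined arrays. Angptl8 read 10.69, 10.94 and 10.55 against 9.69, 9.10 and 9.93. Neither Irf7 nor Angptl8 overlapped between these groups, and neither passed.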

How the data were processed

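Biotin labelling of total RNA from fat followed Affymetrix's standard, per the labels. Log2 values, 1 for every probe set on each array, were deposited by the authors after RMA, per the submitters' processing notes. The sources used here do not give its version, the genome build or how probe sets were defined. Sorted arrays differed by at most 0.00188, so all share 1 distribution, which hides a shift common to most genes and compresses dim values (range 5.62 to 14.4, median 6.31). Within groups, array correlations were 0.994 to 0.998. Probe sets were named from GEO's platform annotation and RefSeq GRCm38.p6: 23185 had 1 symbol, 0 several and 2021 none. Under R 4.3.3, limma 3.58.1 with default lmFit, contrasts.fit and eBayes was fitted to all 12 arrays with 1 mean per group, 8 residual and 1.38 prior degrees of freedom, and Benjamini-Hochberg adjustment over the named probe sets. No filter was applied. On simulated data, 84% of genes changed by 0.5 log2 and 96% of those changed by 1 were recovered. The changed genes were drawn at random, and the noise was normal and independent, with each gene's own residual spread. It held no array effects or outlying arrays, so it does not show that a gene that did not pass was unchanged. The labels describe separate animals. Precision is limited by the number of arrays.

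The members, 59 gene lists and tests were chosen with earlier results of these data known. Named genes were the 15 largest passing changes in each direction without overlap between groups (predicted, RNA and chemosensory genes left out), up to 6 passing and 4 other members of each list, the targets and 16 readouts; genes chosen after their values were seen are marked. Leaving out single arrays, array weights, other variance settings, dim probe sets, unnamed probe sets, centring and a fit on 6 arrays were tried as alternatives. The alternatives that leave out LCN13 or combined arrays were chosen after seeing the data.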

Additional observations from a re-analysis of the deposited data

Results flagged for a closer look

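Probe sets without a gene name took no part in the comparisons above. Adjusted over all 25206 probe sets, 21 of these 2021 passed in TSC22D4 shRNA minus control (1.04%), 6 higher and 15 lower, with log2 differences from -2.22 to 0.51 (limma, adjusted p under 0.05). They are mentioned because they are signal in data that the report did not use, and their genes are not named here.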

How the results depend on the processing

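No paired analysis was possible because the groups share no replicate numbers. The 272 calls against control (68 higher, 204 lower) became 142 (31 and 111) in a fit on the 6 arrays of both groups and 447 (134 and 313) with array weights, and leaving out 1 of the 6 arrays gave 153 to 282 (29 to 59 higher, 121 to 223 lower). Leaving out an array of another group, chosen after seeing the data, gave 350 calls (126 higher, 224 lower) without LCN13 replicate 8, and 41 higher without combined replicate 14. The 239 calls against LCN13 shRNA (106 higher, 133 lower) became 75 (29 and 46) on 6 arrays and 1178 (557 and 621) with array weights. There the lower calls were 78 with a variance trend and the higher calls 167 without dim probe sets, and leaving out 1 array gave 2 to 582 (1 to 307 higher, 1 to 275 lower). The 0 calls against the combined group became 1, higher, without TSC22D4 replicate 11 and 4 (2 higher, 2 lower) without combined replicate 16. The cause of these changes was not tested, apart from the fewer arrays that some fits hold. Of the 90 lowered interferon and antiviral genes, 61 kept the call on 6 arrays and 71 to 84 without 1 array. Of the 114 other lower genes 37 and 49 to 80 did, and of the 68 higher genes 11 and 16 to 33. None of the 272 genes changed sign with another setting, on 6 arrays or without 1 of those 6. Among genes that did not pass, Tsc22d4 stood at 0.052 with array weights and between -0.063 and 0.091 without 1 array (0.047 without TSC22D4 replicate 12), and Svs5 between -0.0060 (without TSC22D4 replicate 10) and 2.205 (without replicate 11). Among 20 lowered genes whose TSC22D4 shRNA mean lay under the array median, dimness limits the size of the decrease.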
